A study of Homo sapiens with 9 samples.

Results

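The teneurins TENM1, TENM2, TENM3 and TENM4 and the latrophilins ADGRL1, ADGRL2, ADGRL3 and ADGRL4 were examined in RNA sequencing of MDA-MB-231 cells depleted of AHR. All 8 were found among the 60649 genes of the count table by their symbol. The family was chosen by a value from these same data, the near loss of TENM2 with the construct shAHR#2. For the members, the comparison of shAHR#2 with the control vector is therefore given as a description, without a p-value. Their tests against the control rest on shAHR#3 libraries, which that choice did not use. Direct tests of shAHR#3 against shAHR#2 share the shAHR#2 libraries with the choice. Counts of genes called with shAHR#2 are given only for all genes and for a list of partner genes.

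Teneurins are large transmembrane proteins of the cell surface, best known from the nervous system, where they help neurons find and match their partners. Latrophilins are adhesion G protein-coupled receptors, and the extracellular part of a teneurin on a cell binds the lectin-like domain of a latrophilin on the next. Latrophilins also bind FLRT proteins, which in turn bind UNC5 receptors, so that these families can form joined contacts between cells. ADGRL4, also called ELTD1, carries the family name but is known mainly from blood vessel endothelium.

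The cells, MDA-MB-231, are a long-established line of human triple-negative breast cancer, which the labels call mammary epithelial and proliferating. All groups received a lentiviral vector: pLKO-GFP in 3 control libraries, and short hairpin RNAs against AHR in 3 shAHR#2 and 3 shAHR#3 libraries. The study's methods describe each transduced line as the pooled cells that survived puromycin, and the construct numbers used here are those of the deposited labels. The paper names no shAHR#3, so its numbers may differ from those of the labels. Which hairpin sequence each label stands for is not given. Nothing in the labels says whether replicates came from separate cultures, so p-values measure the spread between these libraries, which may be technical.

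Library totals lay between 15991396 and 20374460 counts. The level of AHR in CPM, read counts scaled to a common library size, was 118 ± 3.32 in pLKO-GFP libraries, 41.6 ± 1.07 in shAHR#2 libraries and 47.7 ± 3.99 in shAHR#3 libraries (SD, n = 3 each), and AHR fell by 1.31 on the log2 scale in the latter (adjusted p = 4.95e-24). Of the epithelial markers, KRT8 was at 284 CPM in the control, while EPCAM was at 6.62 and CDH1 at 0.909. VIM, a mesenchymal filament protein, was at 2630 CPM. The other mesenchymal-like markers were AXL at 1220 CPM, FN1 at 814, ZEB1 at 125 and CDH2 at 0.351 in the control. The summed CPM of 6 epithelial markers ran from 896 to 945 in the control, 1040 to 1090 with shAHR#2 and 1220 to 1310 with shAHR#3. That of 5 mesenchymal-like markers ran from 4770 to 4820, 7770 to 7990 and 6420 to 6500. Single genes are given as percent of the control mean, with shAHR#2 and then with shAHR#3. EPCAM was at 91.5 and 92.2, KRT8 at 103 and 132, and KRT18 at 98.7 and 124. KRT7 was at 128 and 160, KRT19 at 171 and 122, and CDH1 at 198 and 458. FN1 was at 295 and 210, VIM at 147 and 126, and ZEB1 at 147 and 121. AXL was at 115 and 103, and CDH2 at 88.9 and 95.7. Summed CPM of 6 neuronal markers was 8.51 to 12.4 in the control, 5.90 to 7.19 with shAHR#2 and 6.63 to 8.54 with shAHR#3. Most of it was SYT1, with means of 6.56, 4.59 and 4.78 CPM, and MAP2, with 3.57, 1.71 and 1.81. RBFOX3, SNAP25 and SYN1 were at or below 0.879 CPM in every library, and NEFL was at 0 in each. Summed CPM of 6 endothelial markers was 6.58 to 7.06 in the control, 11.0 to 13.3 with shAHR#2 and 12.1 to 14.0 with shAHR#3. Within that list KDR went down from a mean of 4.21 to 0.618 and 0.332 CPM, and PECAM1 went up from 2.40 to 11.2 and 12.2. CDH5, TIE1 and TEK were at or below 0.586 CPM in every library. VWF had 0 reads in each control library, 4, 5 and 7 with shAHR#2 and 9, 4 and 4 with shAHR#3, and did not pass the filter on low counts. The part of these 4 marker lists in the values below was not tested.

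Across the control libraries the family was led by TENM3. To compare levels between genes, CPM was divided by the summed length of all annotated exons of a gene, which is approximate because the transcripts in use are not known. On this scale TENM3 was at 11.1 ± 0.095 CPM per kb in the control, TENM2 at 1.10 ± 0.072, ADGRL1 at 1.06 ± 0.066 and ADGRL2 at 0.454 ± 0.053 (SD, n = 3 each). TENM2 and ADGRL1 did not differ beyond their spread. TENM1 followed at 0.0245 ± 0.0095 CPM per kb, and ADGRL3 (0.00816 ± 0.0051) and TENM4 (0.00627 ± 0.0053) were lower and again within each other's spread. ADGRL4 had no read in any library. With shAHR#2 the order was TENM3, ADGRL1, ADGRL2, ADGRL3, TENM1, TENM4 and TENM2, and the last 3 lay within each other's spread, with TENM2 at 0.00268 ± 0.0025 CPM per kb. With shAHR#3 TENM1 (0.0661 ± 0.018), TENM2 (0.0586 ± 0.014) and ADGRL3 (0.0386 ± 0.016) followed ADGRL2 and were not separated beyond their spread.

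**Figure D1:**
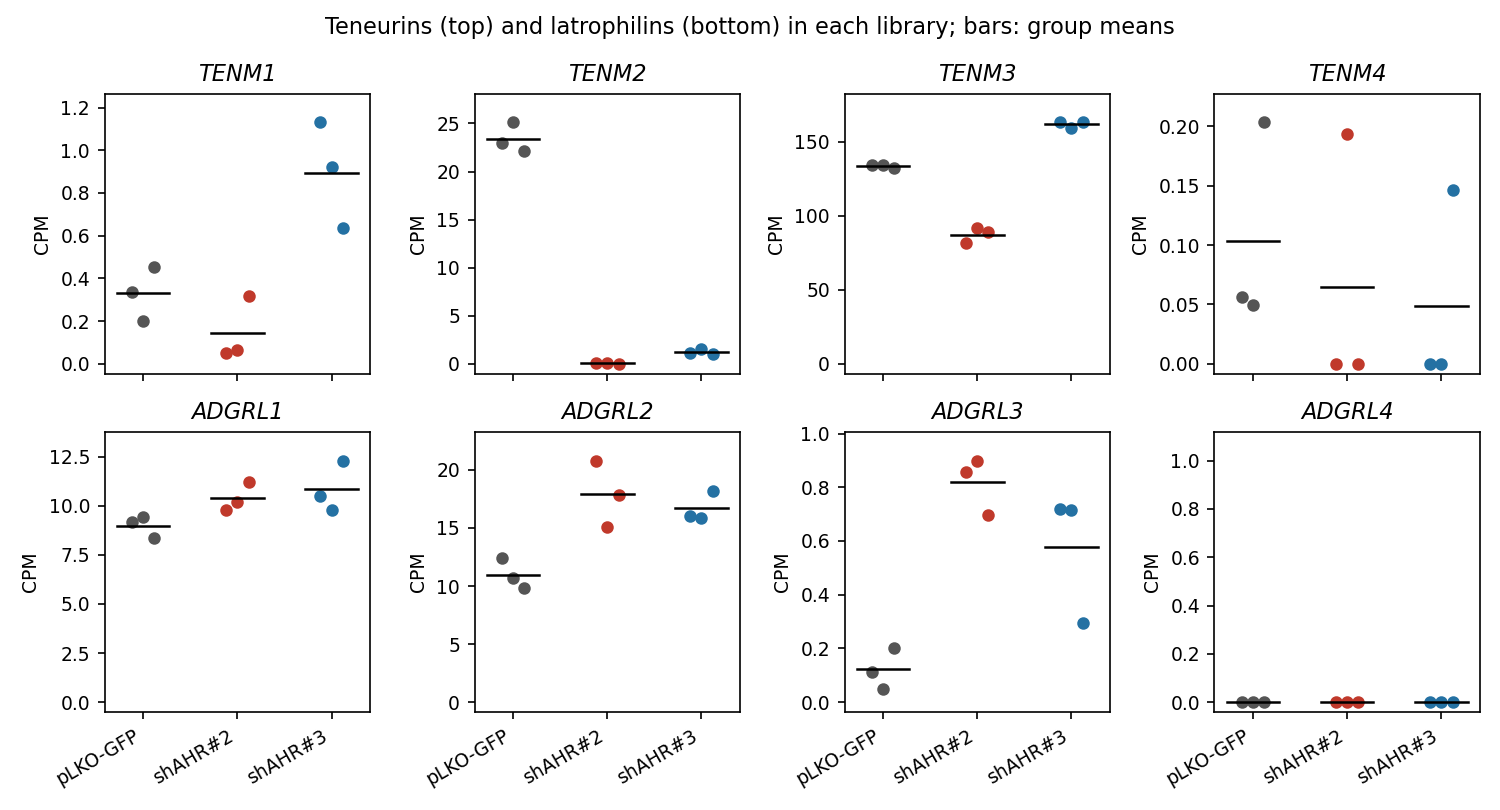
CPM of each of the 8 members (y axis, separate scale per gene, starting just below 0) in the 3 libraries of each group (x axis); points are libraries and horizontal bars group means. TENM2 lies between 22.1 and 25.1 CPM in the control, at or below 0.107 with shAHR#2 and between 1.03 and 1.59 with shAHR#3, while the TENM3 points are lowest with shAHR#2 and highest with shAHR#3.

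TENM2 was the member with the widest range. It was counted at 408, 502 and 436 reads in pLKO-GFP replicates 1, 2 and 3, at 2, 1 and 0 reads with shAHR#2, and at 22, 31 and 21 reads with shAHR#3. The control libraries stood above all others, the shAHR#3 libraries lay in between without overlap, and the shAHR#2 libraries were next to 0. In CPM this was 23.4 ± 1.53 in the control and 1.25 ± 0.298 with shAHR#3 (SD, n = 3 each), or 5.33% ± 1.27 of the control mean. With shAHR#3 TENM2 fell by 4.23 on the log2 scale (standard error 0.14). It passed edgeR's quasi-likelihood test in the fit of all 9 libraries, with an adjusted p of 1.33e-24. The same control libraries entered the choice of the gene, so this test is independent of that choice only on the shAHR#3 side.

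As a description of the values that chose it, TENM2 had 1346 reads in the 3 control libraries together and 3 reads in the 3 shAHR#2 libraries together. The ratio of control to shAHR#2 was 390, with an exact 95% interval of 133 to 1900 that covers counting error only. The fitted log2 fold change of -8.46 depends on how counts near 0 are handled and ranged from -9.24 without shAHR#2 replicate 1 to -7.95 without shAHR#2 replicate 3. In bulk RNA, fewer cells with TENM2 and less TENM2 RNA per cell cannot be told apart.

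TENM2 (ENSG00000145934.16) spans 1285129 bases on the plus strand of chromosome 5, from 166979029 to 168264157 on GRCh38. RefSeq gives 2 start sites of this gene in the promoter table used here, both inside that span. The 250 bases before each are shown, because AHR with its partner ARNT is known to bind DNA at the core letters GCGTG, and these windows were searched for that core on both strands (GCGTG or its reverse complement CACGC, in capitals where found).
TENM2, chr5:167072992-167073241, plus strand: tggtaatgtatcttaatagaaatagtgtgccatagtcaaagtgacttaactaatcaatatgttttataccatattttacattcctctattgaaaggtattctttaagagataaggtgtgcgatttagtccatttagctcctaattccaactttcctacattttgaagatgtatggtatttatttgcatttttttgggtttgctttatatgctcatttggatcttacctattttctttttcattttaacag
TENM2, chr5:167754679-167754928, plus strand: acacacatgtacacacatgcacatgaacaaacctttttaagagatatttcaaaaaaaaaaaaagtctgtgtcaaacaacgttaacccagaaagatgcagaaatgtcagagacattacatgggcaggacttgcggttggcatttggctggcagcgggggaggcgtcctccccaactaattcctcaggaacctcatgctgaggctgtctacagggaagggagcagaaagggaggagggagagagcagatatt
Neither window holds the core, and the windows contain 1 and 4 CG pairs at a GC content of 29.2% and 46.4%. Over all 35116 windows of the same length in the table, 32.2% hold the core, the median number of CG pairs is 11 and the median GC content is 58.0%. The annotated start of the span, at 166979029, had no window in the table and was not searched. Whether either window shown is a promoter was not tested. Which start MDA-MB-231 cells use cannot be read from counts per gene, and binding was not measured.

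Of 14 annotated genes that overlap TENM2, 13 were in the count table, and the lncRNA ENSG00000254187 was the only one above 10 reads in any library. It lies at 167653228 to 167660481 of chromosome 5, inside TENM2 on the opposite strand. It was counted at 6, 14 and 3 reads in the control libraries and at 0 in all 6 shAHR libraries. Its reads thus had the same order between control and shAHR libraries as TENM2, at a depth too low to pass the filter. The libraries were stranded, but the strand setting of the counting is not given in the sources used here, so reads of overlapping genes on opposite strands may have been mixed.

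Genes around TENM2 were also mostly lower, most of them by less than TENM2. Within 10 Mb on either side, 84 other genes were tested. Of these, 76 had a negative log2 fold change with shAHR#2 (median -0.51) and 68 with shAHR#3 (median -0.24). With shAHR#3, 50 passed the test as lower and 6 as higher, where 27.5% and 26.9% of all genes tested did. The lowest were ARL10, at -8.49 with shAHR#2 and -1.84 with shAHR#3 and without a read in any shAHR#2 library, so that the first value depends on how 0 is handled, and LINC01411 at -3.14 and -2.50. The nearest tested gene, WWC1 at 27 kb, which encodes the Hippo pathway protein KIBRA, was at -1.27 for shAHR#2 and at -0.69 for shAHR#3 (adjusted p = 1.30e-13 for the latter, both log2 fold changes). RARS1, an aminoacyl-tRNA synthetase gene 222 kb away, had -0.66 and -0.38 (adjusted p = 1.83e-12). PANK3, at 284 kb, had -0.14 and -0.01 (adjusted p = 0.721 with shAHR#3). On the other side no tested gene lay within 3 Mb, and MAT2B, the nearest, had -0.24 and -0.12 (adjusted p = 0.00575). Among these 10 nearest tested genes, 5 on each side, log2 fold changes with shAHR#3 ran from -0.69 to 0.28. Over the 656 tested genes of chromosome 5 the median was -0.48 with shAHR#2 and -0.26 with shAHR#3, and TENM2 had the fifth lowest value with shAHR#3. Of these genes, 84.1% were below 0 with shAHR#2 and 79.6% with shAHR#3. Of the other chromosomes that carry members, chromosome 4 had medians of -0.30 and -0.23 and X of -0.24 and -0.32. Those of chromosomes 1, 11 and 19 lay between -0.03 and 0.11. The part of the chromosome in the TENM2 values was not tested.

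**Figure D2:**
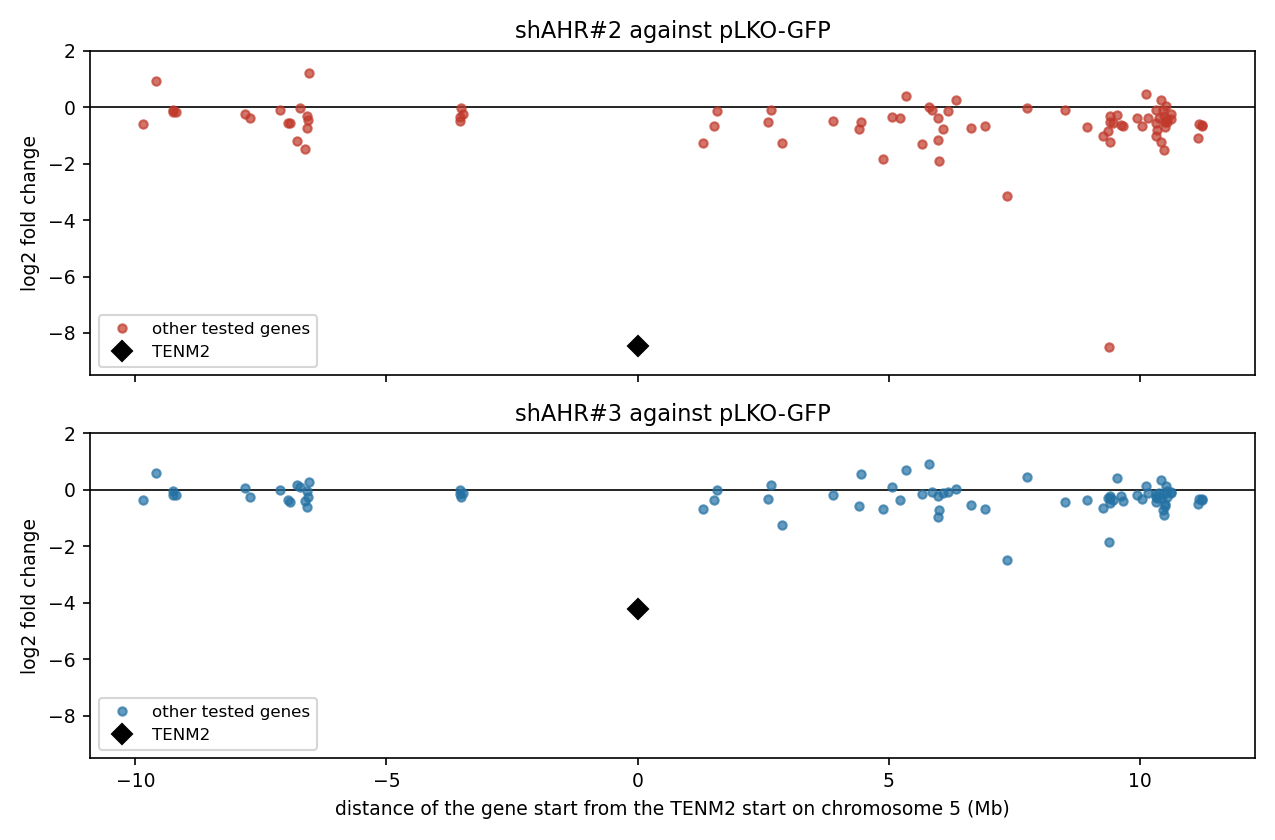
log2 fold change against pLKO-GFP (y axis) of the 84 tested genes within 10 Mb of TENM2 and of TENM2 itself (black diamond), by distance of the gene start from the TENM2 start (x axis, Mb), for shAHR#2 (top) and shAHR#3 (bottom). Most genes lie slightly below 0, TENM2 lies at -8.46 and -4.23, and the lowest of the others are ARL10 at -8.49 with shAHR#2 and LINC01411 at -2.50 with shAHR#3.

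The genes whose pattern over the 9 libraries was nearest to that of TENM2 were found by the Euclidean distance between log2 CPM values centred on the control mean. In order of distance these were SEMA5A (1.84), CCBE1 (2.65), PLCB4 (3.05), PSG1 (3.23) and the lncRNA SNHG18 (3.24), against a median of 14.4 over the tested genes. Mean levels in the control were 15.6 CPM for SEMA5A, a semaphorin guidance protein, 15.2 for CCBE1, a secreted protein of lymphatic vessel growth, and 6.68 for PLCB4, a phospholipase C. With shAHR#3 their log2 fold changes were -4.53, -5.98 and -4.36. All 5 genes were at or under 0.0428 CPM on average with shAHR#2, so the distances there compare values near 0.

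TENM3, the most abundant teneurin of these cells, lay on opposite sides of the control with the constructs. It was at 134, 134 and 132 CPM in the control libraries, at 81.4, 91.6 and 88.9 with shAHR#2 and at 163, 159 and 163 with shAHR#3. No group overlapped another. With shAHR#3 TENM3 rose by 0.27 on the log2 scale (standard error 0.04, adjusted p = 1.47e-08), to 121% ± 1.5 of the control mean (SD, n = 3). With shAHR#2 its level was 65.3% of the control mean, a log2 fold change of -0.62. Compared directly, TENM3 was higher with shAHR#3 than with shAHR#2 by 0.89 (95% interval 0.82 to 0.97, adjusted p = 1.95e-21). This direct comparison shares the shAHR#2 libraries with the choice of the family, although TENM3 was not the gene that drew it.

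TENM3 (ENSG00000218336.9) lies on chromosome 4, plus strand, from 182143987 to 182803024 on GRCh38. Both of its RefSeq windows hold the core GCGTG, and they are shown for comparison with those of TENM2.
TENM3, chr4:182143713-182143962, plus strand: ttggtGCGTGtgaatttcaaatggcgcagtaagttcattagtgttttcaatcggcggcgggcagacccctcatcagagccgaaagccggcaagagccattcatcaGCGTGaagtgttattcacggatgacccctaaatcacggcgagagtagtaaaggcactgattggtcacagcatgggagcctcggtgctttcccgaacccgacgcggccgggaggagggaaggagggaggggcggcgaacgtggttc
TENM3, chr4:182448766-182449015, plus strand: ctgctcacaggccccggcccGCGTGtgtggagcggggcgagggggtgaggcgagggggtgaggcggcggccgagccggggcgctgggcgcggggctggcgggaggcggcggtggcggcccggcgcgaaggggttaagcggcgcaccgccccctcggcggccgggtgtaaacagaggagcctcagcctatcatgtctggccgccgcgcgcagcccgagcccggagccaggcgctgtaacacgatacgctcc
The first window has 2 cores and 20 CG pairs, the second 1 core and 35 CG pairs. Of the 18 windows found for 7 of the members, 9 hold the core, and 2 of the 8 windows of ADGRL2 share bases. ADGRL1 had no entry in the table. A match of letters is a description of the sequence and not a binding site.

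The start of TENM3 is overlapped by the antisense lncRNA TENM3-AS1 (chromosome 4, 181874438 to 182145249). Its reads were 34, 48 and 46 in the control, 81, 47 and 62 with shAHR#2 and 101, 81 and 83 with shAHR#3. TENM3-AS1 rose by 1.00 on the log2 scale with shAHR#3 (standard error 0.18, adjusted p = 1.45e-05) and had a log2 fold change of 0.77 with shAHR#2. TENM3 and its antisense transcript thus had the same direction with shAHR#3 and different signs with shAHR#2. The 5 genes with a pattern nearest to that of TENM3 were RCSD1 (distance 0.21), BMP4 (0.23), SLC37A1 (0.26), TBC1D2B (0.27) and SSBP2 (0.28), against a median of 1.43. The means of BMP4, a secreted growth factor, were 235 CPM in pLKO-GFP libraries, 158 in shAHR#2 libraries and 288 in shAHR#3 libraries.

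TENM1, on the X chromosome, was near the limit of detection. It had 6, 4 and 9 reads in the control libraries, 1, 1 and 5 with shAHR#2 and 22, 18 and 13 with shAHR#3. The shAHR#3 libraries were above all others, whereas control and shAHR#2 libraries overlapped. TENM1 passed the filter on low counts only through the shAHR#3 libraries, where it was high, so its values are weak evidence of a difference. Its log2 fold change with shAHR#3 was 1.41 (standard error 0.45, adjusted p = 0.00731, and 0.0117 when no filter was applied), but the adjusted p was 0.0534 when pLKO-GFP replicate 2 was left out and 0.0502 when shAHR#3 replicate 1 was. Against shAHR#2 the difference was 2.61 under the same limit (95% interval 1.48 to 3.74, adjusted p = 1.94e-04). The log2 fold change with shAHR#2 was -1.20, and ran from -2.37 without shAHR#2 replicate 3, which held 5 of the 7 reads, to -0.77 without shAHR#2 replicate 1. TENM1 overlaps the end of STAG2, a cohesin gene on the opposite strand with 3025 to 4193 reads per library, whose log2 fold change with shAHR#3 was -0.20.

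TENM4 was counted at 1, 1 and 4 reads in the control, 0, 3 and 0 with shAHR#2 and 0, 0 and 3 with shAHR#3. No difference was detectable at this depth. Teneurins as a family were thus carried by TENM3, with a share of 90.8% ± 0.38 of the summed teneurin level per kb in pLKO-GFP libraries, 99.8% ± 0.093 in shAHR#2 libraries and 99.1% ± 0.16 in shAHR#3 libraries (SD, n = 3 each). The share of TENM2 was 8.57 to 9.50% in the control libraries, 0 to 0.0742% with shAHR#2 and 0.352 to 0.556% with shAHR#3. The sum itself was 12.1 to 12.4 CPM per kb in the control, 6.78 to 7.64 with shAHR#2 and 13.4 to 13.7 with shAHR#3, and the groups did not overlap.

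**Figure D3:**
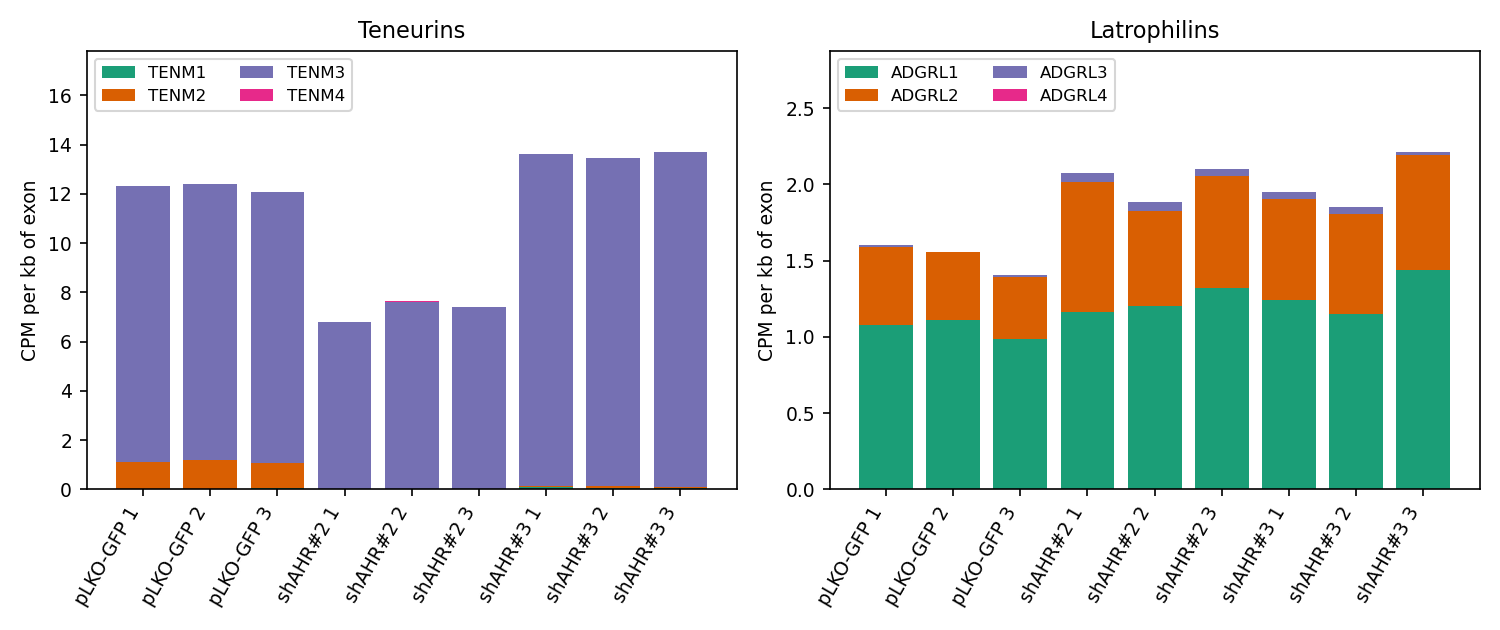
Stacked bars of CPM per kb of exon (y axis, from 0) of the 4 teneurins (left) and the 4 latrophilins (right) in each of the 9 libraries (x axis). TENM3 makes up nearly all of every teneurin bar and the TENM2 part at the foot is plain in the 3 control libraries, a thin line at most with shAHR#3 and not visible with shAHR#2. Latrophilin bars are 1.40 to 1.60 CPM per kb high in the control and 1.86 to 2.22 in the shAHR libraries.

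The latrophilins ADGRL1, ADGRL2 and ADGRL3 were each higher in every shAHR library than in any control library. Over all genes tested, 68.2% had ranges of shAHR#2 and control that did not overlap, and 58.7% those of shAHR#3 and control. ADGRL3 passed the filter only through shAHR libraries, where it was high, and shAHR#2 libraries entered the choice of the family. This order is therefore no support for a change of the latrophilins as a group. ADGRL2 was at 12.4, 10.7 and 9.82 CPM in the control, 20.8, 15.1 and 17.8 with shAHR#2 and 16.0, 15.9 and 18.2 with shAHR#3. Both shAHR groups were above the control in all libraries and overlapped each other. ADGRL2 rose by 0.61 on the log2 scale with shAHR#3 (standard error 0.10, adjusted p = 3.21e-06), to 152% ± 11.9 of the control mean, and had a log2 fold change of 0.72 with shAHR#2. The difference between the constructs, shAHR#3 minus shAHR#2, was -0.10 with a 95% interval of -0.30 to 0.09 (adjusted p = 0.411).

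ADGRL1, the latrophilin with the highest level per kb, had the smallest fold changes of the 3 latrophilins tested. Its CPM was 9.15, 9.44 and 8.36 in the control, 9.81, 10.2 and 11.2 with shAHR#2 and 10.5, 9.77 and 12.3 with shAHR#3. The shAHR libraries were all above the control libraries, by a small margin. With shAHR#3 it rose by 0.27 (standard error 0.11, adjusted p = 0.0264). That call was lost without pLKO-GFP replicate 3 (adjusted p = 0.118), without shAHR#3 replicate 3 (adjusted p = 0.207) and with DESeq2 (adjusted p = 0.0672). With shAHR#2 the log2 fold change was 0.21, and the constructs differed by 0.06 (95% interval -0.15 to 0.28, adjusted p = 0.667). The antisense gene ADGRL1-AS1 had 0 to 7 reads per library over all 9 libraries.

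ADGRL3 was rare in the control, with 2, 1 and 4 reads, and had 16, 14 and 11 reads with shAHR#2 and 14, 14 and 6 with shAHR#3. Every shAHR library was above every control library. It passed the filter on low counts through the shAHR#2 libraries and could not be tested in a fit of shAHR#3 and control libraries alone. With all 9 libraries its log2 fold change with shAHR#3 was 2.17 (standard error 0.59, adjusted p = 0.00185, and 0.00165 when no filter was applied), a value that ranged from 1.80 without pLKO-GFP replicate 2 to 2.75 without pLKO-GFP replicate 3. Its log2 fold change with shAHR#2 was 2.68, and 3.26 without pLKO-GFP replicate 3. The constructs differed by -0.51 with a wide 95% interval of -1.33 to 0.31 (adjusted p = 0.333).

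ADGRL4, the endothelial member, had 0 reads in each of the 9 libraries. With 56286903 reads in the control libraries together, a count of 0 allows up to 0.0533 CPM there, and the limits were 0.0585 CPM with shAHR#2 and 0.0505 CPM with shAHR#3 (3 counts over each group, counting error only). Per kb, ADGRL1 made up 69.6% ± 1.9 of the latrophilin sum in the control and 63.6% ± 1.5 with shAHR#3, while ADGRL2 made up 29.8% ± 1.9 and 34.5% ± 0.77 (SD, n = 3 each). ADGRL3 stayed at or below 3.19% in every library. The endothelial marker sum was also higher in both shAHR groups, as given above, with PECAM1 higher and KDR lower. The part of that sum in the latrophilin values was not tested.

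**Figure D4:**
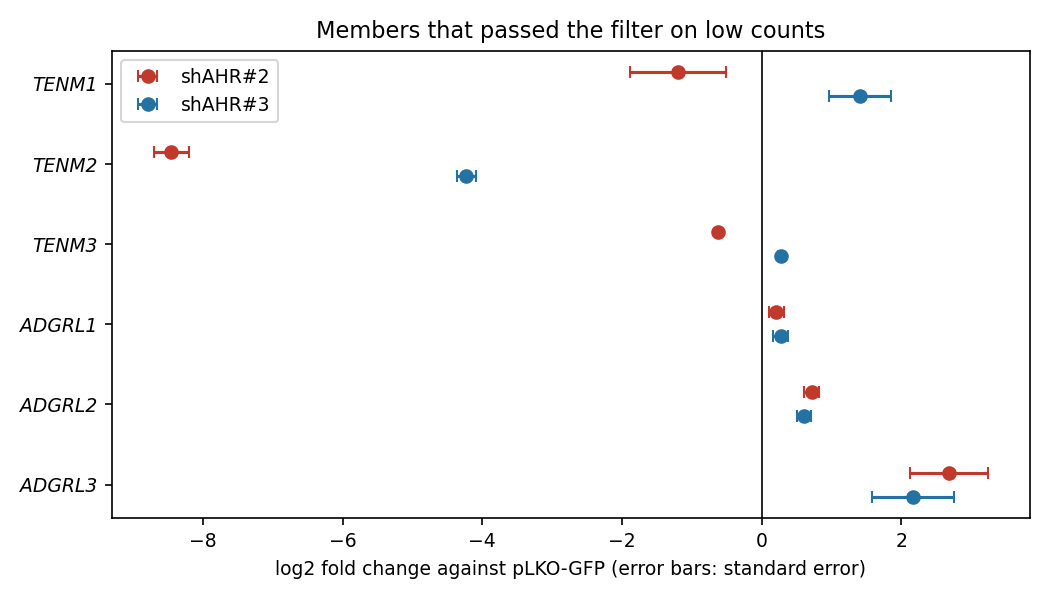
log2 fold change against pLKO-GFP (x axis, error bars are standard errors) of the 6 members that passed the filter on low counts (y axis) with shAHR#2 (red) and shAHR#3 (blue). TENM2 is far below 0 with both constructs, TENM1 and TENM3 lie on either side of 0, and the 3 latrophilins lie above 0 with both, from 0.21 for ADGRL1 to 2.68 for ADGRL3 with shAHR#2.

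In total, 6 of the 8 members passed the filter. TENM1 and ADGRL3 did so only through the groups in which they were high, so the counts that follow are no support for a change of the family. With shAHR#3, 5 of the 6 were called as higher and 1 as lower, with a median log2 fold change of 0.44. Over all 14274 genes tested, 54.4% were called, 26.9% as higher and 27.5% as lower, with a median of 0. The CPM ranges of shAHR#3 and control did not overlap for 6 of the 6, and for 58.7% of all genes tested. In the contrast behind the choice of the family, shAHR#2 against control, 65.8% of all genes were called (32.6% higher and 33.2% lower) and 68.2% had ranges that did not overlap, and members are not counted there. Between the constructs 42.3% of all genes were called, and of the 5 members other than TENM2 so were TENM1 and TENM3. Both constructs were compared with the same control libraries.

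A list of 24 genes whose products bind, transmit for or process teneurins and latrophilins was described beside them. Of these, 16 were tested, and with shAHR#3 5 rose, 6 fell and 5 did not pass the test (median log2 fold change 0), where 54.4% of all genes tested were called. With shAHR#2 4 were higher and 7 lower past the threshold (median -0.05), where 65.8% of all genes were called. Nothing particular to the list is read from these counts.

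Among the 10 ligands and co-receptors 3 passed the filter. FLRT1, FLRT3, UNC5A, UNC5C, UNC5D, NRXN2 and NRXN3 had at most 3 reads in any library. FLRT2, the FLRT ligand of these cells, was at 49.6, 47.6 and 51.5 CPM in the control, 27.5, 28.9 and 28.2 with shAHR#2 and 42.6, 45.4 and 47.6 with shAHR#3. The shAHR#2 libraries were well below the others. The log2 fold change of FLRT2 was -0.81 for shAHR#2 and -0.13 for shAHR#3, the second with an adjusted p of 0.0343, which lost the threshold with DESeq2 (adjusted p = 0.0707), when pLKO-GFP replicate 3 was left out (0.159) and when shAHR#3 replicate 1 was (0.225), among others. The constructs differed by 0.68 (standard error 0.06, adjusted p = 2.23e-12). DAG1, which encodes dystroglycan, a matrix receptor reported to bind teneurin, rose by 0.21 with shAHR#3 (adjusted p = 1.48e-07) and was at -0.05 with shAHR#2. UNC5B, a netrin and FLRT receptor, had 4, 1 and 2 reads in the control, 12, 8 and 10 with shAHR#2 and 15, 17 and 14 with shAHR#3, but it passed the filter only through the shAHR groups, where it was high. With that limit its log2 fold change with shAHR#3 was 2.60 (adjusted p = 7.31e-05, and 4.13e-05 when no filter was applied), and 2.22 to 3.25 when each library was left out.

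Of the 11 genes for signalling and scaffolding of latrophilins, 10 were tested, and 3 rose and 2 fell with shAHR#3, against 26.9% and 27.5% of all genes. ARHGEF11, a RhoA exchange factor downstream of G12 and G13 proteins, fell by 0.33 (adjusted p = 2.18e-08), and GNA11, a G protein subunit of the Gq class, fell by 0.16 (adjusted p = 3.20e-05). ARHGEF1, another such exchange factor, rose by 0.19 (adjusted p = 8.13e-04). RHOA and GNA12 rose by 0.06 and 0.09 (adjusted p = 0.0322 and 0.0351), and both calls were lost without pLKO-GFP replicate 3 (adjusted p = 0.146 and 0.201). The 5 others, GNA13, GNAQ, ARHGEF12, SHANK2 and SHANK3, had log2 fold changes from -0.07 to 0.14. SHANK1 was not tested, with at most 11 reads in any library. Partners inside the cell and processing enzymes of teneurins are a list described only in part. Of these, HINT1 fell with shAHR#3 by 0.56 (adjusted p = 3.92e-18) and MBD1 by 0.26 (adjusted p = 1.49e-04), both reported partners of the TENM1 intracellular domain. FURIN, a protease of the secretory pathway, fell by 0.22 (adjusted p = 2.23e-04). With shAHR#2 the log2 fold changes of HINT1, MBD1 and FURIN were -0.63, -0.38 and -0.17. Over all genes tested, 27.5% were called as lower with shAHR#3 and 33.2% with shAHR#2, and nothing particular to this part of the list is read from its calls.

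**Figure D5:**
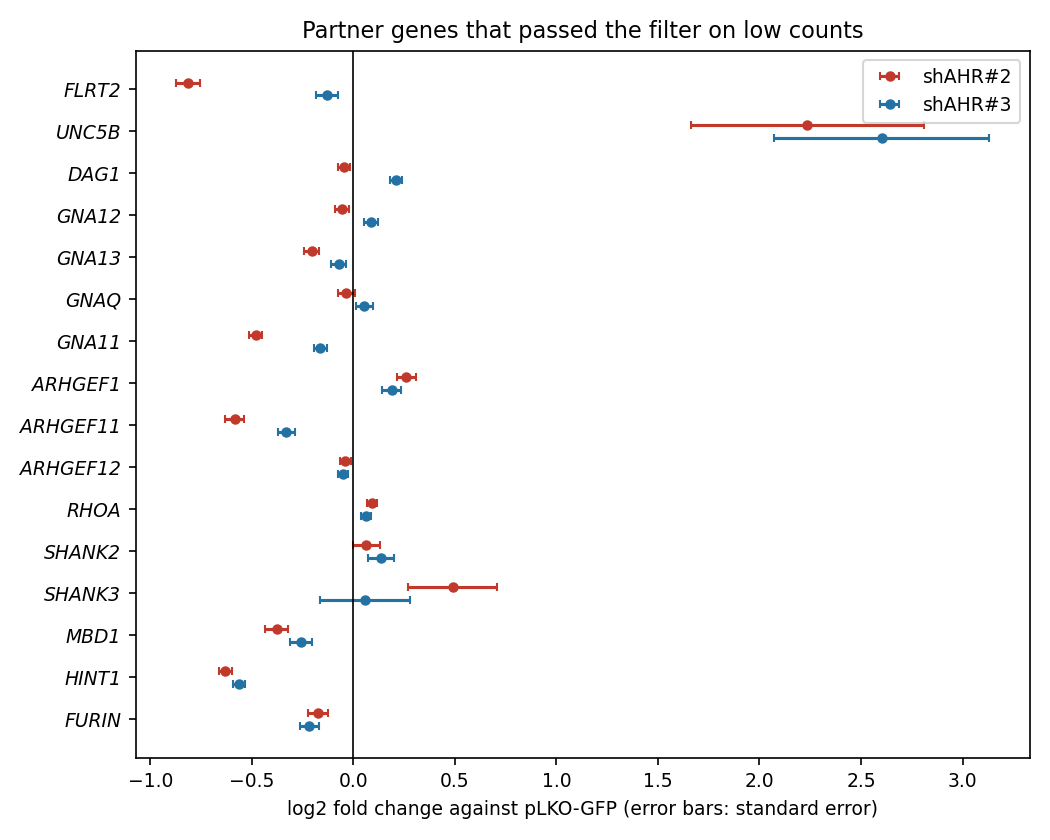
log2 fold change against pLKO-GFP (x axis, error bars are standard errors) of the 16 tested partner genes (y axis) with shAHR#2 (red) and shAHR#3 (blue). Apart from UNC5B at 2.24 and 2.60, values lie between -0.81 and 0.49, and FLRT2 shows the widest gap between constructs among genes above 1 CPM in the control.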

How the data were processed

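RNA was measured in 9 libraries, 3 per group, prepared by the authors with a stranded mRNA kit and sequenced from a single end. STAR alignments to GRCh38.p13 were made by the authors, who deposited raw read counts for each gene. The submitters' processing notes also name featureCounts and Subread, while versions, annotation release and strand setting are not given in the sources used here.

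Genes were filtered with filterByExpr (minimum count 10, minimum total count 15), leaving 14274 of 60649, and scaled by TMM. The quasi-likelihood test of edgeR 4.0.16 in R 4.3.3 was fitted to all genes and all 9 libraries with a mean per group and without a block. P-values were adjusted by Benjamini-Hochberg over all genes tested, with a threshold of 0.05. Standard errors and 95% intervals were derived from F. The fits were tested on simulated data. DESeq2 1.42.0, which the study used, was an alternative, along with other scaling, filters and thresholds, fits of only the groups compared, a replicate block and leaving out each library. Log2 CPM for pattern distances had a prior count of 2.

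Members and gene lists were chosen with earlier results of these data known. Named were AHR, all members, partner genes that passed the filter, genes overlapping a member, the 5 tested genes on each side of TENM2 and the 5 nearest in pattern to TENM2 and TENM3. Part of the partner list is not reported here, and its counts leave that part out. The untested partners, ARL10, LINC01411 and the single cell type markers were named after their values were seen. Positions are from GENCODE release 44 (60463 of 60649 identifiers found), exon lengths too, and promoter sequences from RefSeq (GRCh38.p14). Replicate numbers did not pair libraries: deviations from group means of same-numbered libraries correlated at 0.003 to 0.058. No replicate was a copy of another (chi-square over degrees of freedom 1.75 to 4.15).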

Additional observations from a re-analysis of the deposited data

Results flagged for a closer look

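TENM3 and TENM1 had fold changes of opposite sign with the constructs, relative to the same control libraries, and the direct comparison of shAHR#3 with shAHR#2 passed the threshold of edgeR's quasi-likelihood test for both. TENM3 differed by 0.89 on the log2 scale, with all 3 shAHR#2 libraries below and all 3 shAHR#3 libraries above the control range. TENM1 differed by 2.61, at 1 to 22 reads per library, and its shAHR#2 libraries, with 1, 1 and 5 reads, overlapped the control. TENM1 passed the filter only through the shAHR#3 libraries, where it was high, so its values are weak evidence of a difference. Both direct comparisons share the shAHR#2 libraries with the choice of the family. Leaving out a library moved the TENM3 difference between 0.84 and 0.93 and the TENM1 difference between 2.19 and 3.79, the highest without shAHR#2 replicate 3.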

How the results depend on the processing

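Counting only genes with a change of at least 1 on the log2 scale left 1691 genes with shAHR#2, 961 with shAHR#3 and 530 between the constructs, 3 members and 1 partner gene with shAHR#3. Under the other alternatives these counts stayed within 1.5 times their values. Leaving out a library gave 5 to 6 members and 9 to 12 partner genes called with shAHR#3. Only the small differences of latrophilins between constructs changed sign, for ADGRL1 to -0.04 without shAHR#3 replicate 3 and for ADGRL2 to 0.03 without shAHR#2 replicate 1, with ranges of -0.04 to 0.13 and -0.21 to 0.03 when each library was left out, neither past the threshold in any fit. With the replicate block, 7844 genes, 6 members and 12 partner genes were called with shAHR#3, 9406 genes with shAHR#2 and 6107 between the constructs. The labels do not say whether same-numbered libraries share more than a number. TENM1, ADGRL3, TENM4 and UNC5B are limited by depth, at under 25 reads in every library. TENM1, ADGRL3 and UNC5B have no value at a mean of at least 50 counts. In fits of only the groups compared, ADGRL3 has none for shAHR#3 against control, so that 5 members were called, and TENM1 none for shAHR#2 against control.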
